A study of Mus musculus with 10 samples.

Results

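The blood-spinal cord barrier was followed through 10 genes, all of which were found by their exact symbol among the 25232 genes of the deposited table. They comprised genes of endothelial junctions (*Cldn5*, *Ocln*, *Tjp1*, *Cdh5* and *Pecam1*), transporters of the endothelial membrane (*Slc2a1*, *Mfsd2a* and *Abcb1a*), a secreted clotting protein of endothelial cells (*Vwf*) and a receptor of pericytes (*Pdgfrb*). RNA of the spinal cord was sequenced from 5 female mice carrying the SOD1 G93A transgene and 5 wild type (WT) females, all labelled C57BL/6 and 90 days of age. According to the methods, the line had a C57BL/6J background and a high number of transgene copies, the WT mice were littermates, and the lumbar region was dissected. The labels name the spinal cord but no segment of it. The values used here are base means, that is, read counts divided by the size factor of their library and averaged over all 10 libraries. They join both genotypes, so that none of the levels below compares SOD1 G93A with WT mice, and they carry no spread between mice.

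The wall of capillaries in the brain and spinal cord is formed by endothelial cells that are sealed to each other by tight junctions and that carry little traffic in vesicles. Nutrients therefore enter through dedicated transporters, while pumps return many drugs and toxins to the blood. Pericytes are embedded in the basement membrane around the capillary and are recruited by a growth factor that the endothelium releases. Astrocyte end-feet cover the vessel from outside.

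All 10 barrier genes had a base mean of at least 100. Their base means ranged from 216 for *Ocln* to 4023 for *Slc2a1*, against a median of 247 over the 20973 genes with a base mean above 0. Taken as one group, they accounted for 591 of every 1000000 normalized reads. Their median lay above 68.6% of the genes with a base mean above 0. *Slc2a1* lay above 95% and *Tjp1* above 93.9% of these genes, and *Ocln* was the only barrier gene below the middle of the distribution, above 48.3% of them.

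**Figure D1:**
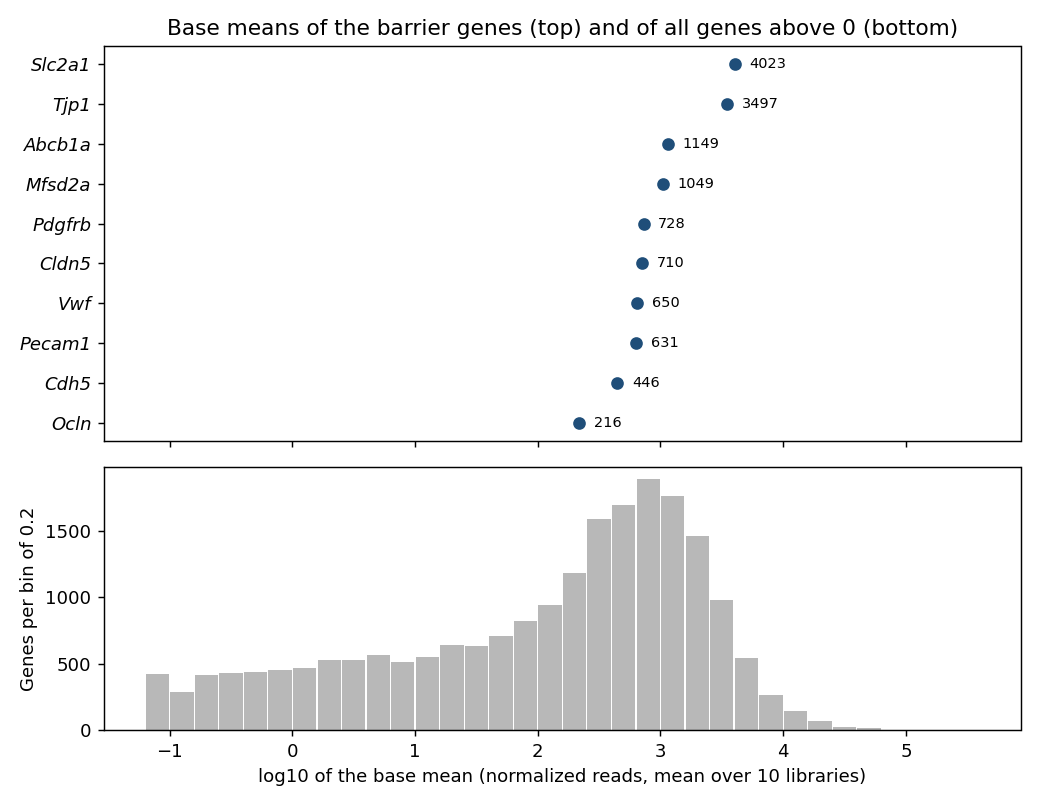
Top: base mean of each barrier gene on a log10 scale, with the value printed beside the point and a 95% counting interval that is narrower than the point. Bottom: number of genes in each bin of 0.2 on the same scale, over the 20973 genes with a base mean above 0. Apart from *Ocln* at 216, every barrier gene lies to the right of the all-gene median of 247.

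The precision that counting allows was read from the lowest base means. The 10 commonest base means above 0 were each shared by at least 50 genes, and the next commonest by 19. They lay between 0.0868 and 0.119, where a gene with 1 read in 1 of 10 libraries must lie if the size factors run from 0.840 to 1.15. All 1299 genes with a base mean under 0.3 equalled sums of 1 to 3 of these values within 2e-08. The libraries therefore differed at most 1.37-fold in size factor, although it is not given which library had which factor. The half-width of the 95% Poisson interval of a base mean was between 0.980% for *Slc2a1* and 4.24% for *Ocln*. These intervals cover counting error only and not the variation between mice.

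Levels of different genes were compared per length. The base mean was divided by the length of all exons of the gene in kilobases and scaled so that all 24648 genes with a length sum to 1000000, a unit written ppm. In bulk tissue, a lower level from fewer cells of a type and one from less RNA per cell cannot be told apart. The barrier genes had a median of 33.5 ppm against 12.4 ppm for all genes above 0, and 8 of the 10 lay above that all-gene median. This difference depended on the length used. With the longest transcript the medians were 30.5 and 12.3 ppm, with 8 genes above, but with the coding length they were 16.0 and 13.7 ppm, with 6 genes above.

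Among the transporters, *Slc2a1*, which encodes the glucose transporter GLUT1, had the highest level of all barrier genes. It lies at chr4:119108711-119137983 of GRCm38 and reached 224.7 ppm (95% counting interval 222 to 227) at a base mean of 4023. *Mfsd2a*, which encodes a carrier of lysophosphatidylcholine with docosahexaenoic acid and holds down vesicle traffic across the endothelium, lies at chr4:122946850-122961188. Its base mean of 1049 corresponded to 91.3 ppm (89.6 to 93.1). *Abcb1a*, one of the genes of the efflux pump P-glycoprotein, lies at chr5:8660077-8748575 and had a base mean of 1149, or 41.0 ppm (40.3 to 41.8). The 3 transporters thus differed from each other by far more than their counting intervals, with *Slc2a1* highest and *Abcb1a* lowest.

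Reads can be assigned to a gene only where its sequence is its own, and *Abcb1a* was the barrier gene for which this mattered most. Its coding sequence was identical to that of its neighbour *Abcb1b* at 88.1% of 3819 aligned positions. The transcript of *Abcb1a* has 4898 windows of 100 bases, the length of a read. Of these, 417 (8.51%) also occurred in a transcript of another gene on either strand, 367 of them in *Abcb1b* and 11 in *Abcb4*. A window can occur in several of these genes. Matches in *Gm42686*, a gene on the opposite strand whose overlap with *Abcb1a* is given below, numbered 49. A read from such an overlap can still map uniquely. The longest stretch that both coding sequences share without a difference measures 338 bases. The window below, shown because a read from it matches both genes, spans the join of exons 13 and 14 (chr5:8702567-8702886 in *Abcb1a* and chr5:8824887-8825206 in *Abcb1b*, both on the plus strand). Capitals mark the codons of the ABC signature, which takes part in binding ATP.
Abcb1a and Abcb1b: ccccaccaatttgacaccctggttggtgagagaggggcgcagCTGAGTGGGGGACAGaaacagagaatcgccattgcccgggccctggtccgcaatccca
Reads were sequenced as pairs and only uniquely mapped reads were counted, so that a pair lying wholly in shared sequence was left out of both genes. The exons of *Abcb1a* also overlap those of *Gm42686* on the opposite strand over 553 bases (10.1% of its exon length), and those of *Slc2a1* overlap *Gm12868* over 105 bases (2.99%). The library kit keeps the strand of the RNA, but the strand setting of the counting is not given in the sources used here, so that the part of these stretches in the counts was not tested. For the other 8 barrier genes no window of 100 bases occurred in another gene's transcript.

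Among the tight junction genes, *Cldn5* encodes claudin-5, the protein that seals the cleft between endothelial cells, and has a single exon at chr16:18776847-18778262. It was second in level to *Slc2a1*, at 98.1 ppm (95.9 to 100.5) and a base mean of 710. *Tjp1*, which encodes a scaffold protein that binds claudins and occludin to the cytoskeleton, lies at chr7:65296165-65527781 and had 87.7 ppm (86.7 to 88.6) at a base mean of 3497. *Ocln*, which encodes the membrane protein occludin, lies at chr13:100496507-100552718 and had 10.03 ppm (9.61 to 10.5) at a base mean of 216. The level of *Cldn5* was 9.79 times that of *Ocln* (counting interval 9.33 to 10.3), and the ratio lay between 7.85 and 9.79 under the 3 gene lengths tried. *Tjp1* is also used in junctions outside the endothelium, and its level was 4.21 times that of *Cdh5* (4.09 to 4.35).

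Promoter windows of 300 bases, from 250 before to 50 after an annotated start, were given by RefSeq (GRCm38.p6) for 6 of the 10 barrier genes, and not for *Pecam1*, *Cdh5*, *Pdgfrb* and *Vwf*. The windows of *Slc2a1* and *Cldn5* are shown, since these were first and second in level under each gene length tried. Capitals mark any of 5 motifs, searched on both strands: the TATA box as TATAAA, the ETS factor motif as AGGAAG, the core of the hypoxia element as ACGTG, the Sp factor motif as GGGCGG and the TCF and LEF factor motif as CTTTGA.
Slc2a1, chr4:119108495-119108794, plus strand: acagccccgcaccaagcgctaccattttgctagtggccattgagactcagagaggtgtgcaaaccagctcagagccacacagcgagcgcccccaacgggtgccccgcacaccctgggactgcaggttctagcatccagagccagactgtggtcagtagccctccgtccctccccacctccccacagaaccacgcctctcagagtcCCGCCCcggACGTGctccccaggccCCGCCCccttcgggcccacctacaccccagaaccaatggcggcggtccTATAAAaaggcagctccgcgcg
Cldn5, chr16:18776597-18776896, plus strand: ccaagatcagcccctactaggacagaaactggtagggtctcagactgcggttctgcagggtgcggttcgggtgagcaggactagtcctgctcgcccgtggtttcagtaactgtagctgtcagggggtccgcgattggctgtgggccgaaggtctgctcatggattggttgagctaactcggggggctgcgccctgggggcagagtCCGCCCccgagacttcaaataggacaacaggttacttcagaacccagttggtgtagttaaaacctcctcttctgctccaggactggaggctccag
In these letters *Slc2a1* held 1 TATA box motif, 1 hypoxia core and 2 Sp motifs, and *Cldn5* held 1 Sp motif. Of all 32851 windows of this length, 35.7% held the Sp motif, 35.4% the ETS motif, 19.6% the hypoxia core, 16.0% the TCF and LEF motif and 13.6% the TATA box motif. GC content was 65.3% for *Slc2a1* and *Tjp1*, 60.3% for *Mfsd2a* and 58.3% for *Cldn5*, against a median of 52.7% over all windows, and 40.3% for *Abcb1a*. *Tjp1* had 31 CpG dinucleotides, *Mfsd2a* 22, *Slc2a1* 18, *Cldn5* 12 and *Abcb1a* 2, against a median of 7. The windows of *Ocln*, the barrier gene with the lowest base mean, had a GC content of 64% and 68% and 17 and 24 CpG dinucleotides. The window of *Abcb1a* belongs to a start 92986 bases before the gene in GENCODE, and that of *Tjp1* to one 156537 bases inside the gene. The start of the *Tjp1* window lies 5 bases from a transcript start in GENCODE, whereas that of *Abcb1a* has none nearer than 92986 bases. A match of letters is a description and shows no binding.

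Among the adhesion genes, *Cdh5*, which encodes VE-cadherin of endothelial adherens junctions, lies at chr8:104101625-104144511 and had 20.8 ppm (20.2 to 21.4) at a base mean of 446. *Pecam1*, which encodes the adhesion molecule CD31, lies at chr11:106654217-106750628 and had 19.8 ppm (19.3 to 20.3) at a base mean of 631. Their ratio of 1.05 (counting interval 1.01 to 1.09) turned to 0.610 when the longest transcript was used as length and to 0.661 with the coding length, so that no order between them can be given. *Vwf*, which encodes von Willebrand factor, lies at chr6:125546774-125686679 and had the lowest level of the 10, 7.92 ppm (7.73 to 8.12), at a base mean of 650. The order of *Vwf* and *Ocln* also turned with the longest transcript, where *Vwf* had 10.9 ppm and *Ocln* 7.88 ppm. The exons of *Vwf* add up to 16064 bases in the annotation, against 8834 bases in its longest transcript.

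*Pdgfrb*, the receptor through which pericytes respond to platelet-derived growth factor B, lies at chr18:61045150-61085061 and had 26.0 ppm (25.4 to 26.6) at a base mean of 728. Its ligand gene *Pdgfb* had 15.5 ppm, and the ratio of receptor to ligand of 1.68 (1.61 to 1.75) turned to 0.482 with the coding length. The related receptor gene *Pdgfra*, a marker of fibroblasts and of oligodendrocyte precursors, had 26.1 ppm. The ratio of *Pdgfrb* to *Pdgfra* was 0.996 (0.968 to 1.03) over all exons, 0.686 with the longest transcript and 0.537 with the coding length.

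**Figure D2:**
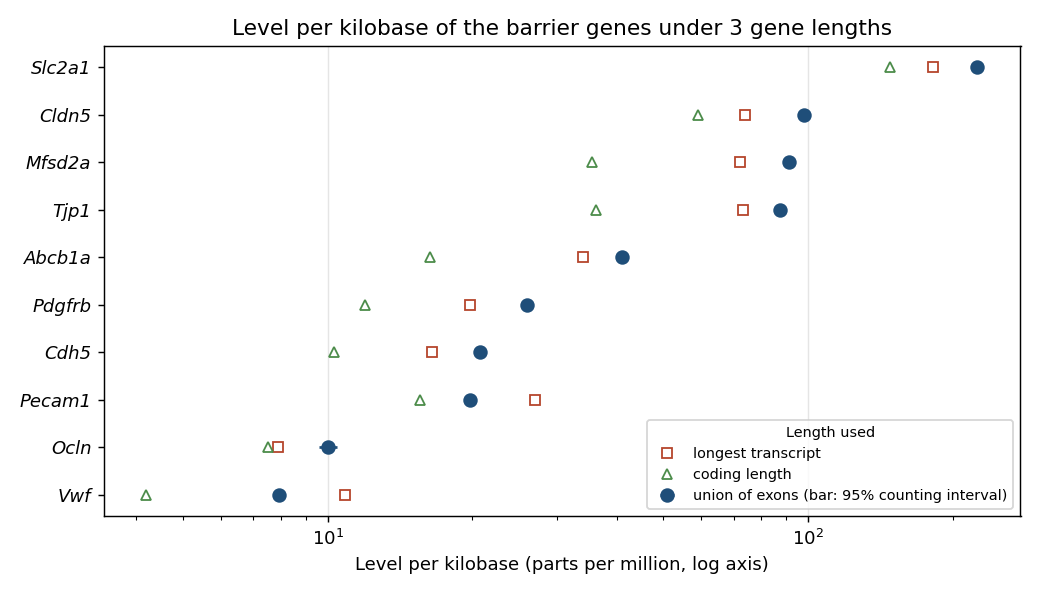
Level per kilobase of each barrier gene in ppm on a log axis, with the length taken as all exons (filled circles, bars are 95% counting intervals), the longest transcript (squares) or the coding length (triangles). *Slc2a1* and *Cldn5* are first and second under each length, while *Pecam1* moves past *Cdh5* and *Pdgfrb*, and *Vwf* past *Ocln*, when the longest transcript is used.

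Ordered by level, the 10 genes were *Slc2a1*, *Cldn5*, *Mfsd2a*, *Tjp1*, *Abcb1a*, *Pdgfrb*, *Cdh5*, *Pecam1*, *Ocln* and *Vwf*. *Slc2a1*, *Cldn5* and *Abcb1a* kept positions 1, 2 and 5 under all 3 lengths. *Mfsd2a* and *Tjp1* differed by a ratio of 1.04 (1.02 to 1.06) over all exons and exchanged places under both other lengths, with ratios of 0.983 and 0.981. Neighbours that differed more clearly were *Slc2a1* over *Cldn5* (2.29, counting interval 2.23 to 2.35) and *Tjp1* over *Abcb1a* (2.14, 2.09 to 2.18). Whether any of these differences exceeds the spread between mice could not be asked of a mean over all libraries.

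The share of each gene family that the barrier gene held was taken next, over 7 families. *Mfsd2a* held 97.3% of the level of *Mfsd2a* and *Mfsd2b*, and *Abcb1a* held 93.1% of the level of *Abcb1a* and *Abcb1b*. *Abcb1b* had 3.05 ppm, so that the level of *Abcb1a* was 13.5 times as high over all exons and 7.95 times as high with the longest transcript. *Ocln* held 82.9% of its family, in which *Marveld2*, the gene of tricellulin, had 1.21 ppm. *Slc2a1* held 56.8% of the 12 sugar transporter genes, followed by the neuronal glucose transporter gene *Slc2a3* at 56.6 ppm.

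*Cldn5* held 7.57% of the level of the 23 claudin genes. *Cldn11*, the claudin of myelin, had 1047 ppm and accounted for 80.8%. *Cldn10* followed *Cldn5* at 85.8 ppm, but had a higher level than *Cldn5* with the longest transcript (78.8 against 74.0 ppm). Base means of *Cldn3* and *Cldn1*, 2 claudins that are also named in connection with the barrier, were 3.09 (counting interval 2.098 to 4.392) and 65.7 (60.7 to 70.9). *Cldn3* was thus represented by few reads per library. *Cldn12*, a claudin among the other junction genes described below, had a base mean of 871 (852 to 889) and 40.3 ppm. *Cdh5* held 5.03% of the level of 19 cadherin genes and was number 8 among them, or number 10 with the longest transcript. *Cdh20* was highest at 62.4 ppm, and the neural cadherin gene *Cdh2* had 49.99 ppm. With the longest transcript this order turned, with 62.8 ppm for *Cdh2* and 47.0 ppm for *Cdh20*. *Pdgfrb* held 49.9% of the level of *Pdgfrb* and *Pdgfra*, or 40.7% with the longest transcript. The barrier gene had the highest level in 4 of the 7 families.

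**Figure D3:**
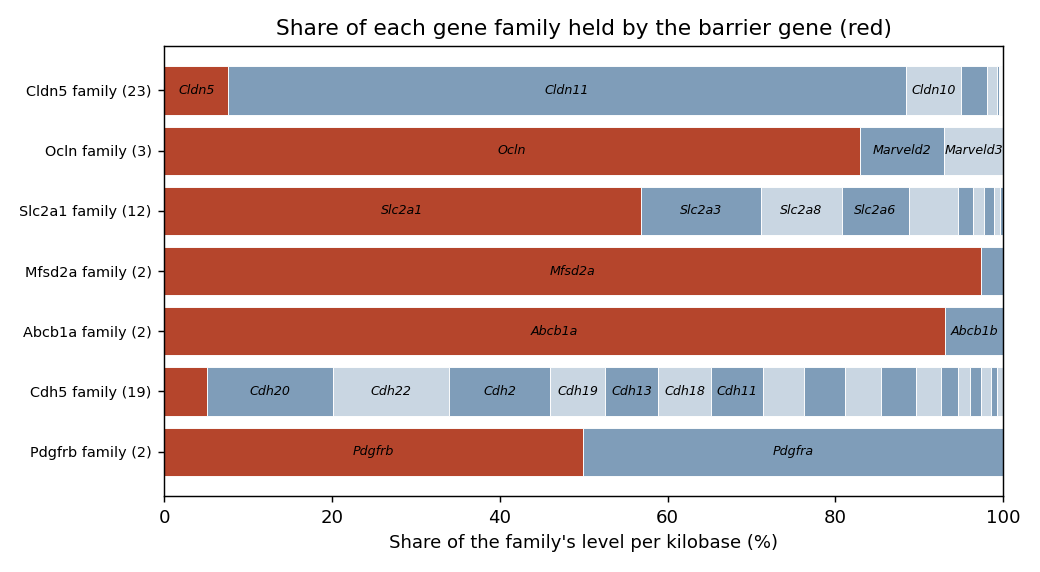
Share (%) of each gene family's summed level per kilobase. Red segments are the barrier gene, blue segments the other genes of the family, and the number of genes in each family, barrier gene included, stands in brackets. *Mfsd2a* (97.3%) and *Abcb1a* (93.1%) fill most of their families, while *Cldn5* (7.57%) stands beside the myelin claudin *Cldn11* (80.8%).

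The other genes of the barrier were taken from fixed lists and are described by their medians. The 12 other genes of endothelial identity all had a base mean above 0, with a median of 17.0 ppm, from 6.01 ppm for *Emcn* to 35.4 ppm for *Eng*, a co-receptor of the TGF-beta family. *Cdh5*, *Pecam1*, *Vwf*, *Ocln* and *Pdgfrb* lay inside this range, while *Cldn5*, *Mfsd2a*, *Tjp1*, *Abcb1a* and *Slc2a1* lay above it. *Cldn5* and *Slc2a1* stayed above the highest of these genes under all 3 lengths. *Abcb1a* came to lie inside the range with the longest transcript, where the range reached 48.3 ppm for *Flt1*. With the coding length *Abcb1a*, *Mfsd2a* and *Tjp1* lay inside the range, which then reached 37.2 ppm for *Egfl7*. The 12 other barrier transporters had a median of 46.0 ppm, led by *Slc3a2* (164 ppm), the shared heavy chain of amino acid carriers. With the coding length *Slc6a6* led them, at 104 ppm against 94.8 ppm for *Slc3a2*. The efflux pump gene *Abcg2* had 13.5 ppm, and *Abcb1a* was 3.03 times as high over all exons (2.94 to 3.13) but 1.05 times with the coding length. The 9 other junction genes had a median of 29.8 ppm, with *Ctnnb1*, the gene of beta-catenin, highest (350 ppm) and *Marveld2* lowest (1.21 ppm). In bulk tissue the RNA of transporter and junction genes, *Slc2a1* included, can also come from cells outside the endothelium. How much of these levels came from endothelial cells was not tested.

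*Plvap*, which encodes a protein of the diaphragms of leaky vessels and is low in mature barrier endothelium, had a base mean of 258 and 25.5 ppm. *Cldn5* was 3.86 times (3.69 to 4.03) and *Mfsd2a* 3.59 times (3.44 to 3.74) as high as *Plvap*, and these ratios stayed between 3.33 and 5.52 under the 3 lengths. *Plvap* in turn had a higher level than 4 barrier genes, *Cdh5*, *Pecam1*, *Ocln* and *Vwf*, and than the median of the endothelial identity genes. With the longest transcript or the coding length it stayed above *Cdh5*, *Ocln* and *Vwf*, while *Pecam1* lay above it. The 5 genes of caveolae and leaky vessels, *Plvap* among them, had a median of 30.4 ppm, with *Cav2* highest (48.3 ppm) and *Cavin2* lowest (19.8 ppm). With the coding length *Plvap* was lowest, at 10.7 ppm against 13.4 ppm for *Cavin2*. Of the 4 genes for leukocyte adhesion, which endothelial cells express on activation, the median was 2.39 ppm. *Vcam1* was highest at 12.4 ppm, and *Sele* had the lowest level, 0.0429 ppm at a base mean of 0.638 (0.243 to 1.36).

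The 9 other pericyte genes had a median of 15.5 ppm, below the 26.0 ppm of *Pdgfrb*. *Vtn*, the gene of vitronectin, was highest (166 ppm) and *Anpep* lowest (4.02 ppm). With the coding length *Rgs5* was highest instead, at 285 ppm against 65.3 ppm for *Vtn*. Vascular smooth muscle genes had a median of 9.16 ppm, with *Tagln* highest (26.6 ppm) and *Cnn1* lowest (1.23 ppm). Fibroblast genes had a median of 19.8 ppm, with *Pdgfra* highest over all exons. *Col1a2* was highest with the longest transcript (34.7 against 28.9 ppm for *Pdgfra*) and *Dcn* with the coding length (33.5 against 22.2 ppm). Fibroblasts and smooth muscle cells can also express *Pdgfrb*, and how much of its level came from them was not tested. Genes of the vascular basement membrane had a median of 19.8 ppm, from 3.29 ppm for *Lama4* to 129 ppm for *Agrn*. How much of these levels came from vessels was not tested. Genes of the Wnt pathway that forms the barrier had a median of 15.2 ppm, from 3.33 ppm for *Lef1* to 50.6 ppm for *Tspan12*. Under both other lengths *Foxq1* was the lowest of them, at 2.69 ppm (longest transcript) and 3.99 ppm (coding length). How much of the Wnt levels came from vessels was also not tested.

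**Figure D4:**
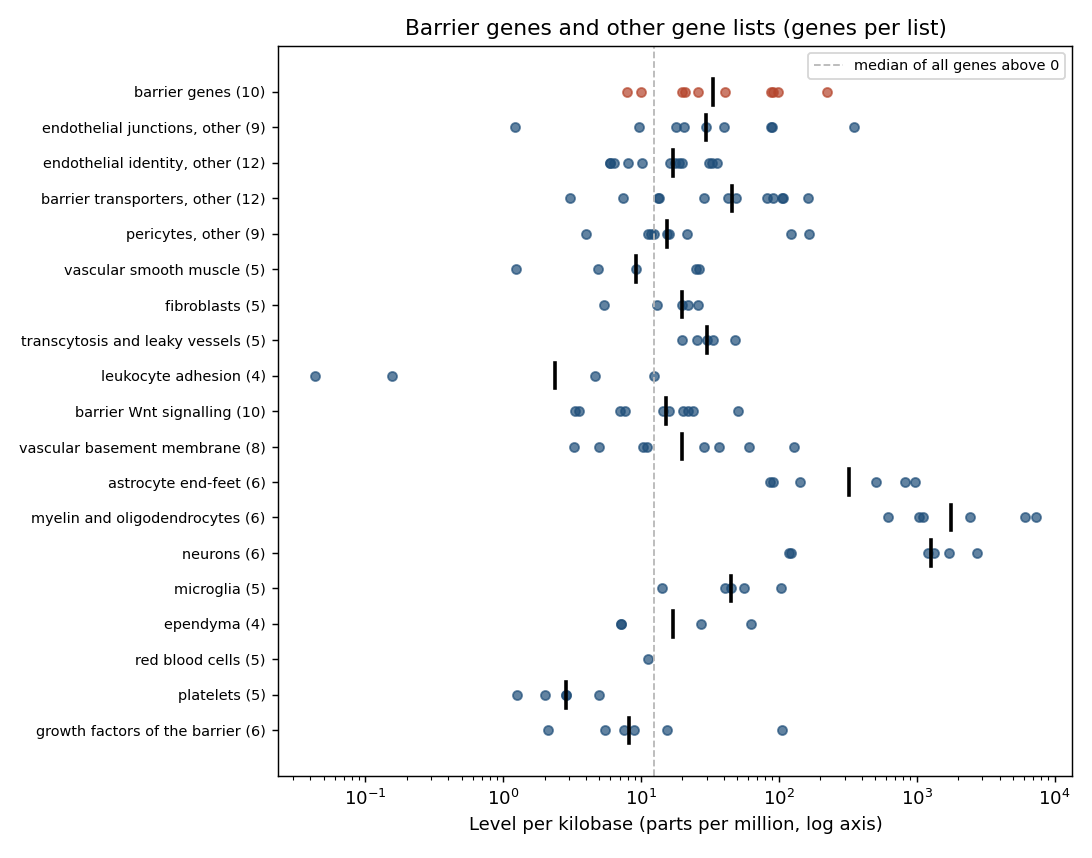
Level per kilobase (ppm, log axis) of the barrier genes (red) and of the genes of 18 other lists (blue), with the number of genes in brackets. Each point is 1 gene, black bars are medians, the dashed line is the median of all genes above 0 (12.4 ppm), and genes at 0 are not drawn. The median of the barrier genes (33.5 ppm) lies below those of neurons (1272 ppm) and myelin (1780 ppm).

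Markers of the main tissue were present. Genes of myelin and oligodendrocytes had a median of 1780 ppm, led by *Mbp* (7390 ppm), and neuronal genes of 1272 ppm, led by *Nefl* (2750 ppm). Genes listed as astrocyte end-feet had a median of 323 ppm, led by *Kcnj10* (974 ppm). That list also holds the astrocyte glutamate transporter genes *Slc1a2* and *Slc1a3*, so its median is not one of end-feet alone. Microglial genes had a median of 44.8 ppm, led by *Csf1r* (103 ppm), and ependymal genes of 17.1 ppm, led by *Foxj1* (62.4 ppm). With the coding length *Mbp* still led its list, but the other leaders changed. *Snap25* (5191 ppm) then led the neuronal genes and *Slc1a2* (1749 ppm) the astrocyte list. *Cx3cr1* (65.4 ppm) led the microglial and *Rarres2* (40.8 ppm) the ependymal genes under that length. In all, 5 of the 18 lists had a higher median than the barrier genes. The 5 platelet genes, of cells that also hold *Vwf* and *Pecam1*, had a median of 2.85 ppm, from 1.26 ppm for *Ppbp* to 4.98 ppm for *Gp1ba*. The platelet gene *Pf4* had a base mean of 10.6, and the level of *Vwf* was 2.75 times (2.27 to 3.33) and that of *Pecam1* 6.88 times (5.68 to 8.34) as high as that of *Pf4*. With the longest transcript these ratios were 4.08 and 10.2, and with the coding length 2.29 and 8.53. Over all exons *Gp1ba*, the highest of the platelet genes, lay closer than *Pf4* to the 7.92 ppm of *Vwf*. With the coding length *Pf4* was the highest of them (1.83 against 1.70 ppm for *Gp1ba*) and *Gp9* the lowest (0.933 ppm). Of 10 globin genes of the alpha and beta clusters, 9 were listed at 0, the adult genes included, whereas *Alas2*, the heme synthesis enzyme of red cells, had a base mean of 137, and the median of the 5 red cell genes was 0. The amount of blood in the tissue can therefore not be read from the globins.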

How the data were processed

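RNA of 10 spinal cord libraries was sequenced, 5 per genotype, with groups taken from the genotype label. Per the submitters' processing notes and the methods, the authors filtered reads with Fastp, aligned them to mm10 with HISAT2 2.1.0, counted uniquely mapped reads with featureCounts 2.0.2 and compared the groups with DESeq2. The gene annotation and strand setting are not given in the sources used here. The deposited table holds, for 25232 genes, a base mean, which is a normalized signal that the authors averaged over all libraries, and 5 columns of the authors' own comparison (log2 fold change, standard error, Wald statistic, p-value and adjusted p-value). Those 5 columns were not used here. No column of single libraries was used, so no test between genotypes, no spread between mice and no depth of each library could be computed.

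Base means were divided by GENCODE M21 lengths (GRCm38, the build of mm10). A length was found for 24312 symbols directly and for 336 through a RefSeq synonym, and 584 genes, with 0.599% of all normalized reads, had none. Size factors were derived from the base means of genes with 1 read. Poisson intervals at 95% cover counting error only. Alternatives were other gene lengths, other sets of genes and minimum base means of 10 and 100. All 10 barrier genes were named. Of each list and family the highest or lowest genes were named, and any further gene was picked once its level was known. A gene family, and a gene of the junction list, are not reported here. The members and lists were chosen with earlier results of these data known. Python 3.11.15, numpy 2.4.6, pandas 2.3.3, scipy 1.17.1 and matplotlib 3.10.9 were used.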

Additional observations from a re-analysis of the deposited data

How the results depend on the processing

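All 10 barrier genes passed a minimum base mean of 10 and of 100. Their median percentile of 68.6 was 73.9 among all genes of the table, 58.6 among the genes at or above 10 and 69.5 when base means were taken per kilobase. Their median level of 33.5 ppm was 30.5 ppm with the longest transcript and 16.0 ppm with the coding length, where the excess over the all-gene median shrank from 2.71-fold to 1.17-fold. No gene of the mitochondrial genome was matched in the table, so leaving such genes out altered no level. The barrier gene led 4 of 7 families under each way of taking the level that was run, and 5 of 18 lists had a higher median than the barrier genes, 6 with the longest transcript and 4 by the mean of log2(ppm + 1). Levels of single genes moved beyond their counting interval in 10 of 10 with the longest transcript and in 10 of 10 with the coding length. These shifts include the rescaling of all genes under each length. *Cldn5* went from 98.1 to 74.0 ppm with the longest transcript, although its exons and its longest transcript both measure 1416 bases. A shift beyond the counting interval is therefore not by itself a property of the gene. No paired analysis was possible because the column used is a mean over all libraries, and leaving out single replicates was not run for the same reason. Relative counting error was widest for genes with few reads, such as *Sele*, with a base mean of 0.638 and an interval from 0.243 to 1.36, while the depth of single libraries is unknown.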

Other observations

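Among growth factors that act on spinal cord vessels, the median was 8.20 ppm. *Vegfa*, the main growth factor of endothelial cells, was highest at 106 ppm, and *Angpt2*, which loosens the contact of endothelium and pericytes, was lowest at 2.11 ppm (base mean 39.8, 95% counting interval 36.0 to 43.9). These levels join both genotypes and were not compared between them.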
